A study of Homo sapiens with 10 samples.

Results

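ATF4 with its target genes and the cytosolic tRNA synthetases form a set of 50 genes that was followed here across clones of a human lymphoma cell line. The set was given by name: 30 genes are ATF4 or its stress-response targets and 20 are cytosolic aminoacyl-tRNA synthetases, named by the older symbols that GENCODE release 29 uses (AARS for AARS1, and so on). All 50 names matched 1 row each of the 58721 rows of the count table. Of these, 48 had enough reads to be tested, and NUPR1 and STC2, at no more than 0.0589 CPM in any sample, did not.

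ATF4 is a transcription factor whose translation goes up when the initiation factor eIF2 is phosphorylated, as happens when amino acids run short, when proteins misfold in the endoplasmic reticulum, or when haem or double-stranded RNA signals stress. Its targets make, import or save amino acids, charge tRNAs, and in prolonged stress promote cell death. Because ATF4 is controlled largely through translation, its own transcript level is only part of its regulation, while the transcripts of its targets are a common readout of its activity. Aminoacyl-tRNA synthetases attach each amino acid to its tRNA, and the genes of many of the cytosolic ones are themselves ATF4 targets.

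The study compared 2 groups of single-cell clones of the line labelled U2392. Both had received a Cas9 and guide RNA plasmid, and a double-stranded template with silent changes that removed the PAM and added a SpeI site. In the R475C group (4 samples) the template also carried the R475C change in DDX3X, an RNA helicase that acts in the start of translation. In the wild-type group (6 samples) it carried the wild-type residue, so this group controls for editing. The question was which transcripts differ between edited R475C clones and edited controls. No treatment to induce stress is named in the labels, so the values describe cells in routine culture. Nothing in the labels tells separate clones from repeat cultures of 1 clone, so the p-values rest on a spread between samples that may be technical.

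Total counts ran from 8928539 (R475C replicate 4) to 53779005, and reads on mitochondrial transcripts from 3.98% to 5.62% of the total, the latter again in R475C replicate 4. Levels are given in CPM, a gene's share of the TMM-scaled library size in parts per 1e6. Every mean of 1 genotype has its SD after ±, over 6 wild-type or 4 R475C samples. Means of loci that overlap a member are over all 10 samples and carry no SD. DDX3X, in which the edit changes 1 residue and need not change the level, stood at 421 ± 70.5 CPM in wild-type and 932 ± 126 CPM in R475C. B-cell markers were present, with MS4A1 at 1361 to 2168 CPM and CD79A at 481 to 699.8 CPM over the 10 samples. Of the 4 T-cell markers CD3D and CD3G were at 0 and their sum reached at most 1.66 CPM. The 4 myeloid markers summed to at most 1.045 CPM. The 5 fibroblast and epithelial genes summed to 35.1 to 38.75 CPM in wild-type and 24.3 to 29.1 CPM in R475C. EPCAM was present, at 26.7 ± 8.16 CPM in wild-type and 24.6 ± 3.85 CPM in R475C. DCN was at 7.40 ± 6.41 and 1.53 ± 1.78 CPM, LUM at 0 in R475C and KRT18 at 0 throughout. The part of these 5 genes in the values below was not tested. A bulk library cannot tell fewer cells with a transcript from less of it per cell.

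ATF4 binds, together with C/EBP proteins, a short element in the control regions of its targets. Some of the members that held a searched form of it near a start site are shown. The search could not see other forms of the element or sites outside its windows, so a member without a match may still hold one. The element was searched as TGATGNAA on both strands (TTNCATCA on the other), in RefSeq windows (GRCh38.p14) from 250 bases before to 50 bases after each start site. Windows were matched for 40 of the 50 members, and 14 of these (35.0%) held the element, against 4.46% of all 27305 genes in the table. By role these were 7 of 16 synthetases, 3 of 5 transporters, 3 of 11 regulators and 1 of 5 enzymes. Those shown are printed 5′ to 3′ in the direction of the gene, with the element in capitals.

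SLC7A1, chr13:29595663-29595692, minus strand: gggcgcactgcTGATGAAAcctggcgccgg
SLC1A5, chr19:46784893-46784922, minus strand: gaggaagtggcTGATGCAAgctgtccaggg
ASNS, chr7:97872458-97872487, minus strand: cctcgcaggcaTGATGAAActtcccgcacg
CHAC1, chr15:40953251-40953280, plus strand: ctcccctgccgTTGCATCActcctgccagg
CEBPG, chr19:33374060-33374089, plus strand: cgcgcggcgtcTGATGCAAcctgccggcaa
AARS, chr16:70289675-70289704, minus strand: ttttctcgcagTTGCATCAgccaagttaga
MARS, chr12:57488053-57488082, plus strand: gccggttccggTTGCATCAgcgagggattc
NARS, chr18:57621804-57621833, minus strand: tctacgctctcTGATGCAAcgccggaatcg
TARS, chr5:33440956-33440985, plus strand: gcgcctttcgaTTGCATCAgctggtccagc

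In SLC7A1, NARS and TARS the element begins 7, 14 and 2 bases after the first base of the transcript, and in the others printed it lies wholly or partly before it. The other 5 matches were in ATF3, SLC3A2, GARS, CARS and IARS. A match is a description of letters and not a measured binding site. The median log2 fold change (R475C minus wild-type) was -0.19 over the 14 with it and -0.17 over the 25 tested members without it.

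Between the genotypes, 1 of the 48 tested members passed the test: SLC7A1, which encodes an importer of cationic amino acids, rose in R475C. None passed as lower by edgeR. Over all 17045 genes tested 2.46% passed at an adjusted p of 0.05, 1.31% as higher and 1.15% as lower. Without the adjustment the same level was reached by 2 members as higher and 8 as lower, and by 8.45% and 8.86% of all genes. At the adjusted threshold the share of members called was near the background. Without the adjustment the share of members as lower lay above that of all genes, and the share as higher below it. DESeq2 called 2 members, SLC7A1 as higher and PHGDH as lower, where it called 6.75% of all genes, and limma-voom called SLC7A1 alone, where it called 2.48%.

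Levels of most members lay slightly lower in R475C without passing the test. The log2 fold change was below 0 for 38 of 48 members, against 49.7% of all genes, and the median was -0.26 over the 28 tested ATF4-target members and -0.12 over the 20 synthetases, against 0.00 over all genes. In a comparison of wild-type replicates 1 and 4 with only R475C replicates 1 and 3, the target median was -0.17 with 18 of 28 below 0 and the synthetase median -0.06 with 13 of 20 below 0. In the other 6 samples they were -0.28 with 24 below 0 and -0.22 with 19 below 0. Members moved together between samples, as given below, so these counts of members are not counts of separate observations. Per sample, the median log2 deviation of the target members from their own mean levels overlapped between genotypes. It ran from -0.27 to 0.55 in wild-type and from -0.36 to 0.11 in R475C.

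**Figure D1:**
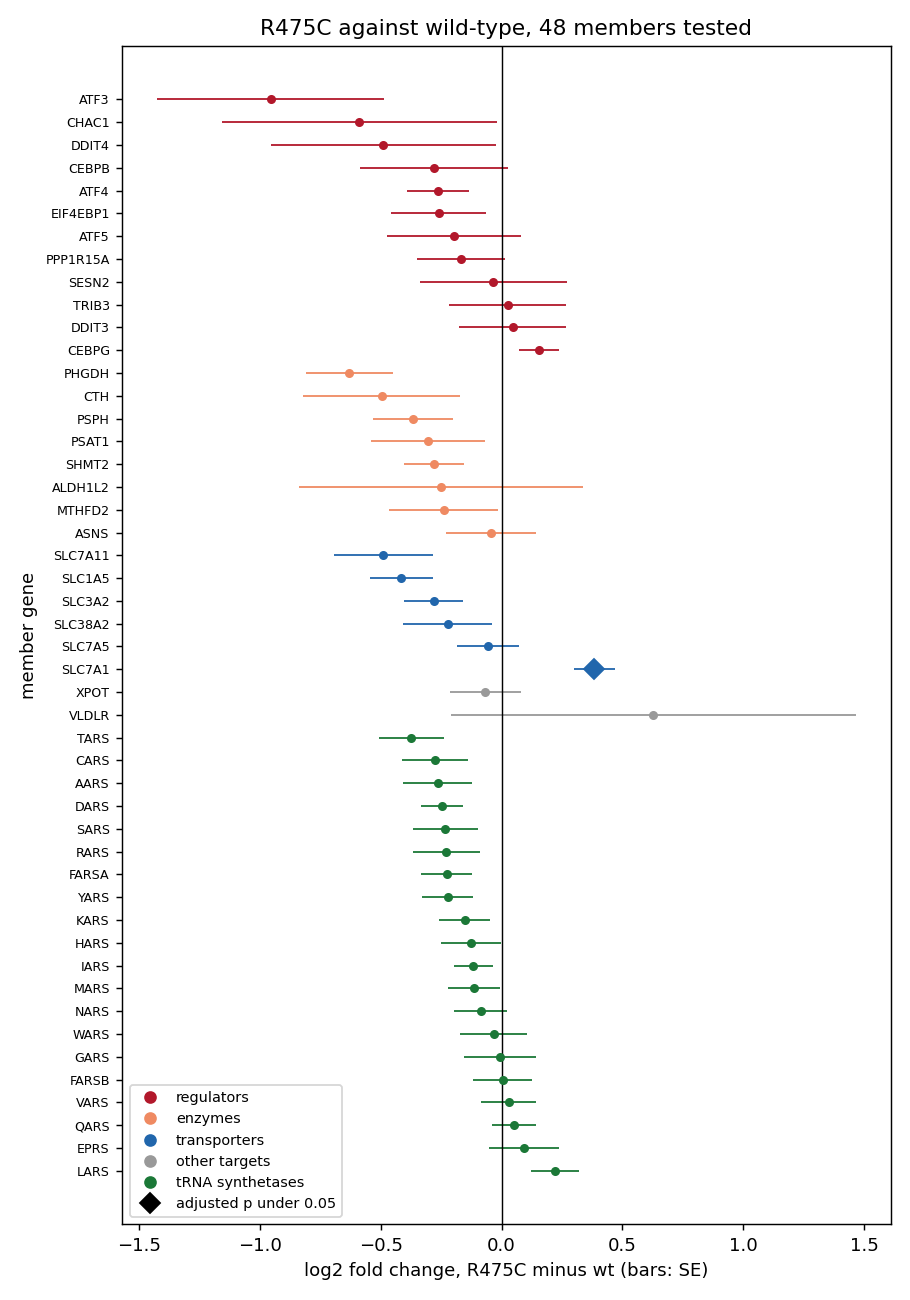
Log2 fold change (x axis, R475C minus wild-type, bars show the SE) of the 48 tested members (y axis), coloured by role and sorted within it. SLC7A1, the diamond at 0.38, is the 1 member past an adjusted p of 0.05, and 38 of the 48 points lie left of 0.

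The 6 amino acid transporters include the most highly expressed member of the set. SLC7A1 (ENSG00000139514.12; chromosome 13, 29509410 to 29595688, minus strand, GRCh38) had the highest level of the 50 per length of its annotated exons, 391 CPM per kb, ahead of NARS at 249 and ATF5 at 179 CPM per kb. The wild-type samples ran from 2478 to 2861 CPM with a median of 2695. R475C replicates 1 to 4 stood at 3794, 3201, 3878 and 3120 CPM. Every R475C sample lay above every wild-type sample, which held of no other tested member in either direction. Of all genes tested, 3.19% were higher and 2.93% lower in R475C without overlap, 6.11% in all.

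The means were 2681 ± 178 and 3498 ± 393 CPM, a log2 fold change of 0.38 (SE 0.09, 1.30-fold; edgeR adjusted p = 0.0409). The exact permutation test, two-sided, gave p = 0.00476, the smallest that 210 arrangements allow. That value restates the lack of overlap given above and is not adjusted for the 48 tested members. The call was sensitive to single libraries: it held without wild-type replicate 1 (adjusted p = 0.0343) and without R475C replicate 4 (adjusted p = 0.0425), and was lost without any 1 of the other 8 samples (adjusted p between 0.0552 and 0.138), with the log2 fold change between 0.33 and 0.42. It was also lost with no low-count filter (log2 fold change 0.38, edgeR adjusted p = 0.166) and with the closest samples summed into pairs (0.39, edgeR adjusted p = 0.413). SLC7A1 shares no exon bases with another annotated gene. For members lower in R475C, the exact permutation test gave unadjusted p = 0.019 (DARS), 0.0238 (PHGDH), 0.0286 (SLC1A5) and 0.0381 (TARS). For CEBPG, higher in R475C, the exact permutation test gave unadjusted p = 0.0476. The groups overlapped in each of these genes and none passed by edgeR.

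The other 5 transporters had log2 fold changes below 0 and none passed. SLC1A5, the importer of glutamine and other neutral amino acids, ranged from 424 to 711 CPM in wild-type (median 568) and stood at 466, 398, 374 and 454 CPM in R475C replicates 1 to 4. Wild-type replicate 1, the lowest of its group, was the 1 wild-type sample within the R475C range. The log2 fold change was -0.41 (SE 0.13, edgeR adjusted p = 0.118), and without that replicate it was -0.49 and passed (adjusted p = 0.0339). SLC1A5 shares 780 exon bases with a locus on the other strand, AC008622.2, at a mean of 126 CPM (log2 fold change -0.35) and whether the counting used strand is not known here.

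SLC3A2 is the heavy chain that carries SLC7A5 and SLC7A11 to the cell surface. It ran from 215 to 343 CPM in wild-type (median 273) and stood at 256, 228, 193 and 226 CPM in R475C (log2 fold change -0.28, SE 0.12, edgeR adjusted p = 0.255). For SLC7A11, the cystine importer that feeds glutathione synthesis, wild-type spanned 35.2 to 73.2 CPM (median 50.25) and R475C 39.7, 32.6, 48.3 and 25.6 CPM (-0.49, SE 0.20, edgeR adjusted p = 0.242). Both pairs of groups overlapped. SLC7A5, the importer of leucine and other large neutral amino acids, differed least, at 601 to 983 CPM in wild-type (median 698) and 798, 682, 614 and 695.5 CPM in R475C (-0.06, SE 0.13). SLC38A2, another neutral amino acid importer, was at 231 ± 62.0 and 198 ± 31.7 CPM.

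**Figure D2:**
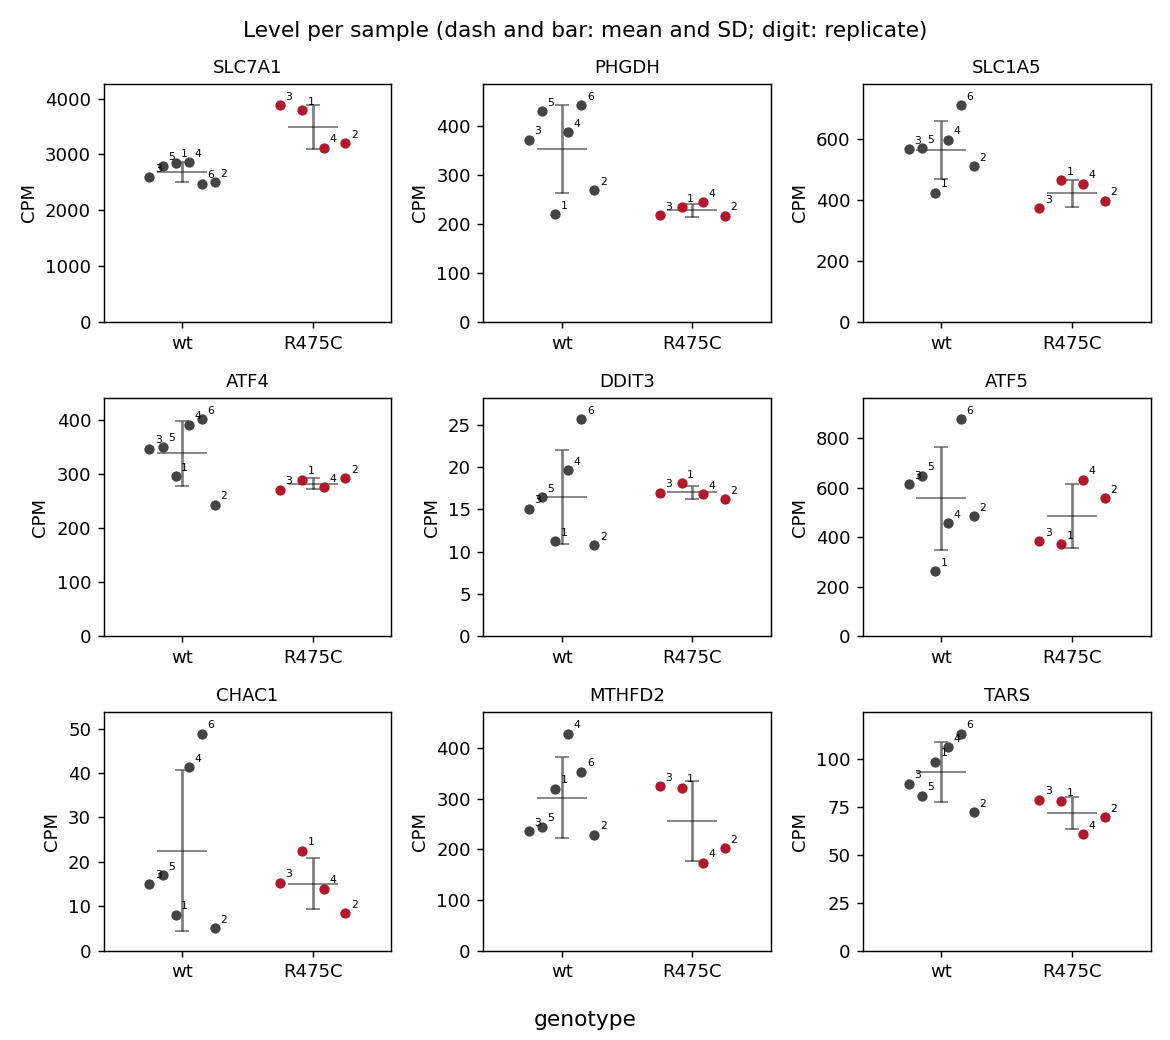
CPM per sample (y axis, from 0) in wild-type and R475C (x axis) for 9 members, with the replicate number at each point and mean and SD as dash and bar. The SLC7A1 groups do not overlap, while for ATF4 and DDIT3 the 4 R475C samples (271 to 292 and 16.2 to 18.1 CPM) sit inside the wild-type range.

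All 8 enzymes of amino acid and one-carbon metabolism had log2 fold changes below 0, from -0.63 to -0.04. By edgeR 3 of them reached an unadjusted p under 0.05, against 8.86% of all genes as lower, and none passed. PHGDH, the first enzyme of serine synthesis, came closest. It stood at 220 to 441 CPM in wild-type (median 379) and at 234, 217, 217 and 244 CPM in R475C. Wild-type replicate 1 (220 CPM) lay among the R475C samples and the other 5 wild-type samples lay above all of them. The log2 fold change was -0.63 (SE 0.18, edgeR adjusted p = 0.0943), passing by DESeq2 (adjusted p = 0.0179) and, by edgeR, without wild-type replicate 1 (adjusted p = 0.0157).

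The next steps of serine synthesis are PSAT1 and PSPH. PSAT1, the aminotransferase, ran from 128 to 294 CPM in wild-type (median 203) and was 223, 129, 209.9 and 123 CPM in R475C (log2 fold change -0.31, SE 0.24). PSPH, the phosphatase, ran from 21.6 to 36.6 CPM (median 25.6) and was 19.7, 19.6, 25.4 and 18.55 CPM in R475C (-0.37, SE 0.16). In each the ranges overlapped. SHMT2, the mitochondrial enzyme that splits serine into glycine and a one-carbon unit, ran from 352 to 533 CPM in wild-type (median 398) and was 404, 298, 365 and 331 CPM in R475C (-0.28, SE 0.13).

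ASNS, which makes asparagine and is a classic ATF4 target, was nearly level between the genotypes. It ran from 122 to 232.5 CPM in wild-type (median 168) and stood at 203, 145, 212 and 137 CPM in R475C (log2 fold change -0.04, SE 0.19). The locus AC079781.5 shares 1985 exon bases with ASNS on the same strand and held a mean of 175 CPM (log2 fold change -0.03), so the same reads may be counted in both rows. MTHFD2, the mitochondrial one-carbon enzyme, was at 302 ± 79.8 CPM in wild-type and 255 ± 78.9 CPM in R475C. CTH, which makes cysteine, was at 29.4 ± 14.8 and 21.0 ± 3.58 CPM. ALDH1L2, a mitochondrial folate enzyme, was at 18.1 ± 15.9 and 15.4 ± 7.54 CPM.

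Among the 13 regulators none passed the test or reached an unadjusted p under 0.05, by edgeR, and none was called by DESeq2 or limma-voom. ATF4 itself ran from 244 to 401 CPM in wild-type (median 349) and was 290, 292, 271 and 276 CPM in R475C. The R475C samples lay close together, within a ratio of 1.08 between the highest and the lowest, and inside the wild-type spread of 1.65. The log2 fold change was -0.26 (SE 0.13, edgeR adjusted p = 0.322). DDIT3, the pro-apoptotic factor CHOP, showed the same shape, with 10.8 to 25.6 CPM in wild-type (median 15.8) and 18.1, 16.2, 17.0 and 16.8 CPM in R475C (0.05, SE 0.22). DDIT3 shares 355 exon bases with the synthetase gene MARS on the other strand, at a mean of 306 CPM against 16.7 for DDIT3.

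ATF3, a repressor induced by ATF4, was low and variable, at 2.53 to 16.9 CPM in wild-type (median 6.43) and 3.82, 2.27, 3.35 and 6.52 CPM in R475C (log2 fold change -0.95, SE 0.47, and -0.54 without wild-type replicate 6). ATF5, a relative of ATF4 that is also controlled through upstream reading frames, ran from 262 to 875 CPM in wild-type (median 549) and was 372, 557, 384 and 633 CPM in R475C (-0.20, SE 0.28). Its exons share 626 bases with NUP62 on the other strand (mean 479 CPM, log2 fold change -0.20). CEBPG, the dimer partner of ATF4, varied least of the regulators among the wild-type samples, at 71.5 to 89.0 CPM (median 73.5) against 82.0, 90.1, 85.6 and 80.6 CPM (0.15, SE 0.08).

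The feedback and effector genes varied more between samples than between genotypes. TRIB3, a pseudokinase that restrains ATF4, ran from 51.6 to 123.5 CPM in wild-type (median 75.1) and was 96.7, 52.0, 84.0 and 96.9 CPM in R475C (log2 fold change 0.03, SE 0.24). CHAC1, which degrades glutathione, ran from 5.02 to 48.9 CPM in wild-type (median 16.0), a ratio of 9.74, and was 22.5, 8.49, 15.3 and 13.9 CPM in R475C (-0.59, SE 0.57). Leaving out 1 sample moved the log2 fold change of CHAC1 between -0.85 and -0.20, the latter without wild-type replicate 6. The groups overlapped in both. DDIT4 and SESN2, inhibitors of mTORC1, had log2 fold changes of -0.49 and -0.03. PPP1R15A, the subunit that directs dephosphorylation of eIF2, had -0.17, EIF4EBP1, a translation repressor, -0.26, and CEBPB, another C/EBP factor, -0.28. NUPR1, a stress-induced chromatin protein, had reads in 1 sample.

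Of the 3 further targets, XPOT, which exports tRNAs from the nucleus, ran from 243 to 379.8 CPM in wild-type (median 301) and was 331, 260.2, 333 and 233 CPM in R475C (log2 fold change -0.07, SE 0.15). VLDLR, a lipoprotein receptor, was barely expressed, at 0.234 to 7.59 CPM (median 0.860) against 5.94, 0.529, 4.56 and 2.54 CPM (0.63, SE 0.84). Its log2 fold change dropped to 0.21 when R475C replicate 1 was left out and reached 1.59 when wild-type replicate 4 was. STC2, a secreted glycoprotein, had reads in 1 sample.

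None of the 20 synthetases passed by edgeR, DESeq2 or limma-voom. An unadjusted p under 0.05 was reached by 1 as higher and 2 as lower, against 8.45% and 8.86% of all genes. Together they were abundant: their summed level was 5586 ± 424 CPM in wild-type and 5265 ± 527 CPM in R475C, and the ranges overlapped (5009 to 6114 and 4569 to 5802 CPM). Log2 fold changes ran from -0.37 to 0.22 and 15 of 20 were below 0, or fitted folds from 0.773 to 1.17.

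TARS, which charges threonine tRNA, had the lowest fold change. It ran from 72.3 to 113 CPM in wild-type (median 92.9) and was 78.2, 69.6, 78.7 and 60.9 CPM in R475C (log2 fold change -0.37, SE 0.13, edgeR adjusted p = 0.167), and it passed with 1 surrogate variable in the model (edgeR adjusted p = 0.0470). DARS, for aspartate, ran from 52.5 to 67.3 CPM (median 60.2) and was 48.2, 51.9, 54.1 and 49.3 CPM (-0.25, SE 0.09). LARS, for leucine, which also serves as a leucine sensor for mTORC1, went the other way, at 212 to 283 CPM (median 222) against 259.7, 306, 267 and 259.3 CPM (0.22, SE 0.10). Each of these genes had overlapping groups.

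WARS, for tryptophan, and EPRS, which charges both glutamate and proline, lay near 0. WARS ran from 216.5 to 297.7 CPM in wild-type (median 239) and was 298, 183, 263 and 216 CPM in R475C (log2 fold change -0.03, SE 0.14). EPRS ran from 374 to 553 CPM (median 449.9) and was 536, 456, 570.4 and 344 CPM (0.09, SE 0.14). Among the others, AARS, SARS, CARS, FARSA, RARS and YARS had log2 fold changes from -0.28 to -0.22. HARS, IARS, KARS, MARS and NARS lay from -0.15 to -0.09, and GARS, FARSB, QARS and VARS from -0.01 to 0.05. FARSA and FARSB, the 2 subunits of the same phenylalanine enzyme, were at 181.5 ± 17.8 and 154 ± 24.0 CPM in wild-type and 155 ± 22.7 and 154.5 ± 17.05 CPM in R475C.

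The larger differences in these genes lay between samples of the same genotype, and there many ATF4 targets moved together. Each member was expressed as its deviation in log2 CPM from the mean of the 2 genotype means. In wild-type replicate 6, 27 of the 28 tested target members lay above their own median over the 10 samples, and in wild-type replicate 4, 25 did. In R475C replicate 2, 3 did. Over all genes tested these shares were 49.2%, 49.8% and 50.7%.

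Wild-type replicate 6 was the highest of the 10 samples for 16 target members and wild-type replicate 4 for 9, together 25 of 28, against 19.0% of all genes tested. SLC7A1, XPOT and CEBPG were the 3 exceptions. The lowest sample was wild-type replicate 1 or 2 for 13 target members and an R475C sample for another 13, against 19.4% and 44.1% of all genes tested. The high and the low end of the ATF4-target range thus both held wild-type samples. Wild-type replicates 1, 2, 4 and 6 and R475C replicate 2 were singled out after their values were seen. The shares of all genes beside them are no test of that choice.

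**Figure D3:**
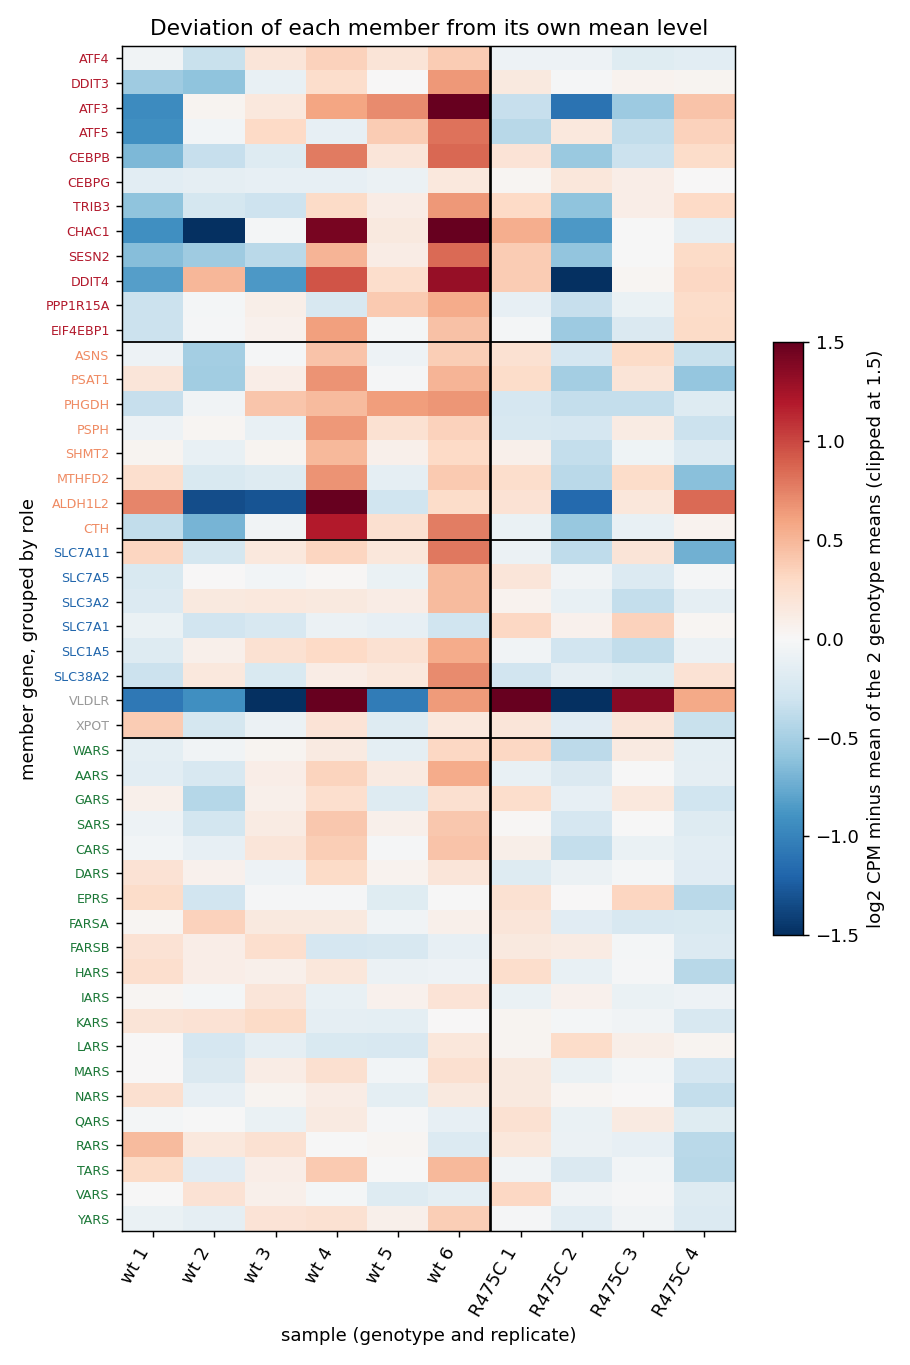
Deviation of each of the 48 tested members (rows, grouped by role) from its own mean level in each of the 10 samples (columns), in log2 CPM, red above and blue below. Wild-type replicates 4 and 6 are red for most ATF4-target rows and R475C replicate 2 is blue, while the synthetase rows are paler.

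The 2 high samples differed in which targets led. Wild-type replicate 4 was the highest sample for 7 of the 8 enzymes and wild-type replicate 6 for 10 of the 12 tested regulators and 5 of the 6 transporters. The enzymes had a median deviation of 0.66 in wild-type replicate 4 and 0.38 in wild-type replicate 6. Regulators stood at 0.43 and 0.73, transporters at 0.13 and 0.52. MTHFD2, chosen here after its values were seen, was at 428 CPM in wild-type replicate 4 and 353 in replicate 6, against 229 in replicate 2. ATF5 was at 457 CPM in replicate 4 and 875 in replicate 6.

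Roles also parted within R475C. In R475C replicate 4 the regulators had a median deviation of 0.28, with 10 of 12 above their own median, while the enzymes were at -0.27 and the synthetases at -0.21. Of the 20 synthetases 10 had their lowest level of all samples in this library, which is also the shallowest and is the lowest sample for 15.3% of all genes. In R475C replicates 1 and 3 the enzymes stood at 0.15 and 0.14, and in replicates 2 and 4 at -0.39 and -0.27. Depth and a mitochondrial share of 5.62% moved with the values of R475C replicate 4, and their part in them was not tested.

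**Figure D4:**
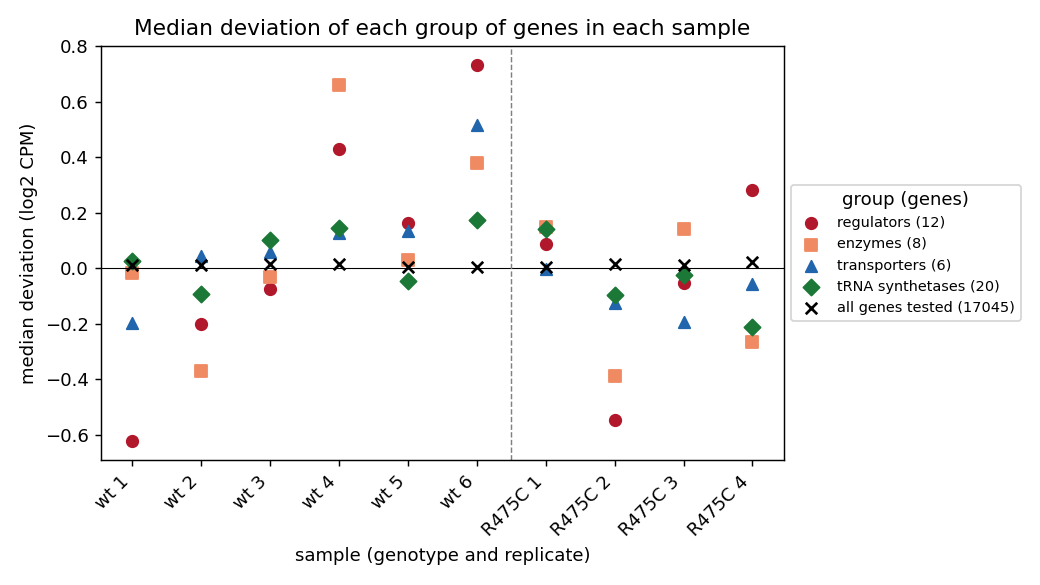
Median deviation in log2 CPM (y axis) of regulators, enzymes, transporters, tRNA synthetases and all tested genes in each sample (x axis, wild-type left and R475C right of the dashed line). All genes stay near 0. The regulators reach 0.73 in wild-type replicate 6, -0.62 in wild-type replicate 1 and -0.55 in R475C replicate 2. The synthetases stay between -0.21 and 0.17.

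Synthetases moved less than the other members. Their median deviation ran from -0.21 to 0.17 over the samples, against -0.36 to 0.55 for the target members. The median SD of log2 CPM within wild-type was 0.18 for the synthetases, 0.37 for the targets and 0.27 over all genes. Within R475C it was 0.18, 0.29 and 0.27, and the transporters alone, at 0.17, lay slightly below the synthetases. AARS, SARS, CARS, TARS, YARS and IARS had their highest level in wild-type replicate 6, as most targets did. DARS and MARS had it in wild-type replicate 4. The other 12 did not follow: FARSA, FARSB, KARS, RARS and NARS were highest in wild-type replicates 2, 3, 3, 1 and 1, and GARS, HARS, QARS, VARS, WARS, LARS and EPRS in an R475C sample.

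Target members varied more among the wild-type samples than among the R475C samples in 21 of 28 cases, against 49.8% of all genes tested. The median SD of log2 CPM over the 28 was 0.37 in wild-type and 0.29 in R475C. Among the widest contrasts, chosen after their values were seen, the SD was 0.27 in wild-type and 0.05 in R475C for ATF4, 0.48 and 0.07 for DDIT3, and 0.40 and 0.08 for PHGDH. No test of this difference in spread was made, and with 4 and 6 samples each SD is imprecise.

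Samples of each genotype also lay closest in pairs, and by the genes outside the set they fell into 2 sets that each hold both genotypes: wild-type replicates 1 and 4 with R475C replicates 1 and 3, and the other 6. The high samples, wild-type replicates 4 and 6, belong to different sets. In R475C, 23 of the 48 members were higher in both samples of the first set than in both of the second and 3 were lower, against 22.6% and 24.8% of all genes. Examples are ASNS (203 and 212 against 145 and 137 CPM), PSAT1 (223 and 209.9 against 129 and 123 CPM) and GARS (486 and 452.5 against 372 and 328 CPM). When both genotypes had to show the division without overlap, XPOT, SLC7A1 and HARS were higher in the first set and ATF5 was lower, 4 of 48 in all, against 8.96% of all genes in each direction. SLC7A1 had a log2 fold change of 0.43 among the first set alone and 0.29 among the second, neither past the test (edgeR adjusted p = 0.199 and 0.160).

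The wider pathway was given by 4 further lists, and no member of any passed by edgeR. The first held 17 genes upstream of ATF4 (eIF2 kinases, eIF2 and eIF2B subunits and their regulators). By edgeR 1 of them reached an unadjusted p under 0.05 as higher and 3 as lower, against 8.45% and 8.86% of all genes. Limma-voom called none. DESeq2 called 1, GCN1, as lower, where it called 6.75% of all genes. GCN1, which couples stalled ribosomes to the kinase GCN2, was at 534 ± 28.8 CPM in wild-type and 438 ± 24.8 CPM in R475C without overlap (log2 fold change -0.29, SE 0.07, edgeR adjusted p = 0.0577). EIF2AK1, the haem-regulated eIF2 kinase, was the other upstream gene that did not overlap (-0.18, SE 0.07). These were 2 of 17 as lower, against 2.93% of all genes. With 1 surrogate variable, and again with the set of samples as covariate, GCN1 and EIF2S2, a subunit of eIF2 (-0.25, SE 0.10 without such a term), were called as lower, where 7.17% and 6.62% of all genes were called. They were singled out after their values were seen.

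Of 21 further ATF4 targets 17 were tested, with a median log2 fold change of -0.08. An unadjusted p under 0.05 was reached by 2 as higher and 2 as lower, against 8.45% and 8.86% of all genes. None was called by limma-voom. DESeq2, with 6.75% of all genes called, called PYCR1 and JDP2 as lower and KLHL24 as higher, as did edgeR with 1 surrogate variable or the set as covariate, and these too were singled out after their values were seen. PYCR1, the last enzyme of proline synthesis, was at 363 ± 164 CPM in wild-type and 161 ± 25.3 CPM in R475C (-1.17, SE 0.31, edgeR adjusted p = 0.0730). JDP2, a transcription factor of the AP-1 family, had -1.17 (SE 0.32) and KLHL24, a ubiquitin ligase adaptor, 0.66 (SE 0.20). JDP2 was the 1 tested gene of this list without overlap, as lower, against 2.93% of all genes. None of 17 mitochondrial synthetases and none of the 3 scaffold proteins of the synthetase complex passed by edgeR, DESeq2 or limma-voom. By edgeR 1 mitochondrial synthetase was lower at an unadjusted p under 0.05, against 8.86% of all genes. The median of the mitochondrial synthetases was -0.02.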

How the data were processed

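For the 10 poly(A)-selected libraries the authors deposited whole-number counts per gene, not normalized. Tools named per the submitters' processing notes are STAR 2.6.0c, cutadapt 1.10 and featureCounts. The sources used here give no build, annotation or strand setting. All 58721 gene IDs equal those of GENCODE release 29 (GRCh38), which gave names, positions and exon lengths.

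Genes passing filterByExpr (minimum count 10, minimum total 15) were scaled by TMM and tested for genotype alone with the quasi-likelihood test (glmQLFit, glmQLFTest; two-sided) of edgeR 4.0.16 under R 4.3.3, with Benjamini-Hochberg adjustment over 17045 genes and a threshold of 0.05. SE is the log2 fold change over the square root of F. Log2 CPM used 1 added count. The test was also run on simulated counts drawn independently for each sample. These hold no pairs or sets of samples, so they cannot check the test under such dependence. Within genotypes the 21 pairs of libraries had a chi-square per gene from 10.7 to 93.1, so none was a copy.

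The 2 sets of samples came from clustering genotype-centred log2 CPM of genes outside the set.

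Members, lists and tests were chosen with earlier results of these data known. ATF4, DDIT3, ATF3, ATF5, TRIB3, CHAC1, ASNS, PSAT1, PHGDH, SLC7A11, SLC7A5, SLC3A2, SLC7A1, VLDLR, WARS and EPRS, every member past the threshold and the 3 members with the smallest p in each role are given by sample. Tried as alternatives were library-size, RLE and upper-quartile scaling, other filters, the robust fit, DESeq2 1.42.0, limma-voom (limma 3.58.1), a replicate block, 1 surrogate variable (sva 3.50.0), the sets of samples, summed pairs and leaving out each sample. Counts of members above their own median under other scalings were added after seeing the data.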

Additional observations from a re-analysis of the deposited data

Results flagged for a closer look

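Dixon's criterion for a sample far from the rest of its group was applied to 58 groups of values, the CPM of the members given by sample and the median deviations of the roles. Chance alone marks about 1 in 20 such groups, and 3 were marked. CEBPG stood at 89.0 CPM in wild-type replicate 6, with the next wild-type sample at 75.6 CPM. SLC7A5 stood at 982.6 CPM in the same sample, with the next at 711 CPM. VLDLR stood at 7.59 CPM in wild-type replicate 4, with the next at 2.74 CPM. These are the 2 samples in which most target members were high.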

How the results depend on the processing

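SLC7A1 was the 1 member called under the 3 other scalings, the 1 CPM filter, the robust fit, limma-voom and the set of samples as covariate. Both over all members and over the ATF4-target members, the number called was 0 with no low-count filter, in the first set of samples alone, in the second alone and with the closest pairs summed, and 2 with DESeq2. With 1 surrogate variable it was 2 over all members, of which 1 was a synthetase (TARS). Leaving out 1 sample gave 0 to 3 called members, all of them ATF4-target members, and no synthetase. The 3 came without wild-type replicate 1 (SLC7A1, PHGDH and SLC1A5). Over all genes the calls ran from 142 without R475C replicate 3 to 794 without wild-type replicate 1, with 1150 by DESeq2, 1222 with 1 surrogate variable, 1128 with the set as covariate and 0 with pairs summed, against 419. The medians stayed below 0 under every alternative run, between -0.31 and -0.17 for the targets and between -0.19 and -0.09 for the synthetases when 1 sample was left out, and between -0.22 and -0.06 for the synthetases in the sets alone.

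Equal replicate numbers are a shared number and no pairing known from the labels: the correlations of same-numbered samples' deviations from the genotype means were 0.334, 0.172, -0.277 and -0.22, and no R475C sample correlated best with the wild-type sample of its own number. With the replicate block the calls were 0 among all members, 0 among the ATF4-target members and 0 over all genes, SLC7A1 was at 0.37 (edgeR adjusted p = 0.284), ATF3 at -0.37, the target median was -0.06 with 15 of 28 below 0, and the log2 fold changes of ASNS, ATF5, CHAC1 and SLC7A5 turned to 0.032, 0.13, 0.20 and 0.039.

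Other members near 0 turned sign as well. In the first set alone ASNS was at 0.074, ATF5 at 0.081, SLC7A5 at 0.12 and WARS at 0.23. In the second set alone DDIT3 was at -0.045, EPRS at -0.067 and TRIB3 at -0.20, and with pairs summed TRIB3 was at -0.13. Leaving out 1 sample moved ASNS between -0.15 and 0.045, DDIT3 between -0.057 and 0.22, EPRS between -0.0052 and 0.21, SLC7A5 between -0.13 and 0.0499, TRIB3 between -0.086 and 0.195, WARS between -0.16 and 0.077 and XPOT between -0.14 and 0.013. The cause was not tested. Chosen after seeing the data, other scalings left the number of target members above their own median at 27 in wild-type replicate 6 and 25 in wild-type replicate 4, and at 3 or 4 in R475C replicate 2. NUPR1 and STC2 had too few reads to be tested.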
